A study of Homo sapiens with 11 samples.

Results

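MITF binding was mapped by chromatin immunoprecipitation and sequencing (ChIP-seq) in 92-1, a cell line from a uveal melanoma, a tumour of the eye's pigment cells. Cells received either DMSO, the solvent control, or FHT-1015, which blocks the ATPase motors SMARCA4 and SMARCA2 that power BAF remodellers of chromatin, and both conditions were sampled at 4 h. The 2 MITF libraries, 1 per condition, were taken from a series of 11 samples that also holds SOX10, TFAP2A, SMARCA4 and H3K27ac (acetylated lysine 27 of histone H3) libraries in both conditions and a DMSO input. Of 888435 peaks in the 10 narrow peak lists, 89519 belonged to MITF in DMSO and 92716 to MITF in FHT-1015. DMSO peaks that shared 1 bp or more with any FHT-1015 MITF peak are called retained, the others lost, and FHT-1015-only peaks were defined the reverse way. No replicate exists for either condition, so no test was possible, every difference describes this pair of libraries, and the 95% intervals cover counting error only.

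MITF is a basic helix-loop-helix leucine zipper factor and the master regulator of the melanocyte lineage. It binds as a dimer to E-boxes, short palindromic or near-palindromic DNA words, among them the M-box first described in the promoters of melanin synthesis genes. It belongs to the MiT-TFE family with TFEB, TFE3 and TFEC, which are known for switching on lysosome and autophagy genes through the CLEAR element, itself an E-box with the letters TCACGTG at its core. In melanoma, MITF is also known to act on metabolism, the cell cycle and survival genes.

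The promoters below show the letters over which MITF reads were kept or reduced at gene starts. The deposited fold and p-value of each peak gave back whole reads at the peak's summit. The ratio used throughout is FHT-1015 reads divided by DMSO reads and by 0.854, an estimate of the FHT-1015 library's depth relative to DMSO. The FHT-1015 reads are those at the summit of the overlapping FHT-1015 peak with the highest −log10 p. That summit need not lie at the DMSO summit. A peak is called reduced where it was lost or its ratio was at least 2-fold lower than 1, a call by size and not by a test. Sequences are RefSeq GRCh38.p14, 5′ to 3′ on the gene's strand, and end at or before the transcription start. Capitals mark CACGTG, the palindromic E-box, and CATGTG or its other-strand form CACATG, the core of the M-box. These 15 stretches were chosen after their values were seen.

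Of 67 listed genes whose promoter window held a summit of at least 50 DMSO reads, 7 were reduced after FHT-1015, which were 5 of 18 with CATGTG, 0 of 29 with CACGTG alone and 2 of 20 with neither. Over all genes, 42 of 837 such promoters were reduced (5.02%). The 5 printed first were chosen among the 7 for holding an M-box core. All but BIRC7 are pigment genes, so gene class moved with the letters, and its part was not tested. The other 2, MLANA (173 and 32 reads, ratio 0.217, the lowest of the 7) and CDC25C (109 and 39, 0.419), hold neither word. At the 5, DMSO and FHT-1015 summit reads were 234 and 44 for TSPAN10 (ratio 0.220), 94 and 33 for SLC24A5 (0.411), 92 and 34 for LYST (0.433), 147 and 62 for TYR (0.494), and 209 and 85 for BIRC7 (0.476).
TSPAN10, chr17:81642210-81642269, plus strand: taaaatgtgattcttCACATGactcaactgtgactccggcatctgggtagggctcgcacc
SLC24A5, chr15:48120930-48120989, plus strand: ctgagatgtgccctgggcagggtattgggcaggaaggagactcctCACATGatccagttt
LYST, chr1:235883714-235883773, minus strand: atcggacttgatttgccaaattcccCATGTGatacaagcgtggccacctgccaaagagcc
TYR, chr11:89177756-89177874, plus strand: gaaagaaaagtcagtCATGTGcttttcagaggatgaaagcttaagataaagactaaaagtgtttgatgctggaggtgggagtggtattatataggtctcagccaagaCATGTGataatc
BIRC7, chr20:63235798-63235898, plus strand: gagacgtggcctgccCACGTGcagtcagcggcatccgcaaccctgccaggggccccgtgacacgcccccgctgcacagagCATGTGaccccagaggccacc

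Another 3 pigment promoters, with 2 M-box cores each and no palindromic E-box in the printed stretch, kept their reads, with 284 and 279 for GPNMB (ratio 1.15), 122 and 98 for TYRP1 (0.940) and 178 and 143 for GPR143 (0.940).
GPNMB, chr7:23246637-23246733, plus strand: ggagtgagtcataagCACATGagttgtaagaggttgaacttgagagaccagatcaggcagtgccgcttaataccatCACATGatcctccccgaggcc
TYRP1, chr9:12693226-12693384, plus strand: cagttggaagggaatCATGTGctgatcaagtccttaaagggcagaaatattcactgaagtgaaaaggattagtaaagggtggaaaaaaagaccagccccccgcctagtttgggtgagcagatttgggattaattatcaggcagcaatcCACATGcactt
GPR143, chrX:9765860-9765923, minus strand: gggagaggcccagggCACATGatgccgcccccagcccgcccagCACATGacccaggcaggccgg

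The remaining 7, of lysosomal genes and CDK4, carry the palindromic E-box and had ratios between 0.929 (GALNS, 199 and 158 reads) and 1.12 (NEU1, 283 and 271 reads). LAMP1 holds 5 copies of it, from 192 to 28 bp before the start.
NEU1, chr6:31862903-31862962, minus strand: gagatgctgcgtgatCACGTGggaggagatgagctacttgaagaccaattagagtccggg
RRAGC, chr1:38859840-38859899, minus strand: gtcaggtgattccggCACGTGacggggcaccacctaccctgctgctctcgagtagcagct
LAMP1, chr13:113297032-113297231, plus strand: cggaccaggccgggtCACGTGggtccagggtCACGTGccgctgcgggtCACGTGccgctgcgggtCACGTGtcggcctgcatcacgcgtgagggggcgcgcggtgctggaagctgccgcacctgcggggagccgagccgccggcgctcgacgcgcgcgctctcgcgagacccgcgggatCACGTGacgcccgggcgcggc
GALNS, chr16:88856959-88857136, minus strand: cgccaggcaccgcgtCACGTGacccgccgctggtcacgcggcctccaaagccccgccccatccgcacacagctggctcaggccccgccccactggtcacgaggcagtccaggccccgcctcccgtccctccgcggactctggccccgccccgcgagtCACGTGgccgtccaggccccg
MCOLN1, chr19:7522564-7522623, plus strand: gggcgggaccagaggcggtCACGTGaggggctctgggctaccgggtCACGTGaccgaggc
CTSA, chr20:45891275-45891334, plus strand: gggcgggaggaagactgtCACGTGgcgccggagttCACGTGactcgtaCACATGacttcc
CDK4, chr12:57752324-57752541, minus strand: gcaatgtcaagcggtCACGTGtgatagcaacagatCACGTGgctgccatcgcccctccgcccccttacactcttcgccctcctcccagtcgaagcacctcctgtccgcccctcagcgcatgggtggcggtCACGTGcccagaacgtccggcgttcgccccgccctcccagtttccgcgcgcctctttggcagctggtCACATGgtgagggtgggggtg

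These examples were set against all 15842 promoter windows in the RefSeq table, each 300 bases long (250 before the start, 50 after), searched on both strands. CACGTG stood in 8.88% of all windows and CATGTG in 8.43%. Among windows that held the summit of a DMSO peak, CACGTG was present in 30.4% of the 2546 retained (95% Wilson interval 28.6 to 32.2) and in 7.97% of the 640 lost (6.11 to 10.3), while CATGTG was in 10.4% and 9.22%. With a DMSO −log10 p of at least 10, CACGTG was in 41.7% of the 1645 retained (39.3 to 44.1) and 19.2% of the 73 lost (11.8 to 29.7). CATGTG ran the other way among these stronger peaks, in 13.01% of the retained (11.5 to 14.7) and 24.7% of the lost (16.2 to 35.6). The CLEAR core TCACGTG, which contains CACGTG, was found in 30.6% of the retained and 10.96% of the lost windows of the stronger peaks, against 4.78% of all windows.

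Among 837 promoters with at least 50 summit reads in DMSO, 42 were reduced in FHT-1015, which is 5.02%. Of the 428 with CACGTG and no CATGTG, 8 were reduced, or 1.87% (0.9501 to 3.64). Of the 95 with CATGTG and no CACGTG, 16 were reduced, or 16.8% (10.6 to 25.6). With both words 1 of 51 was reduced, and with neither 17 of 263, or 6.46% (4.07 to 10.1). All 4 groups had a median ratio between 0.965 and 1.03, so that even with the M-box core alone most promoters kept their MITF reads. The reduced promoters also differed in base composition, with a median of 8 CG dinucleotides per window against 27 in the other deep promoters, and the part of composition in the difference was not tested. A match describes the letters and does not show which base MITF contacted.

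**Figure D1:**
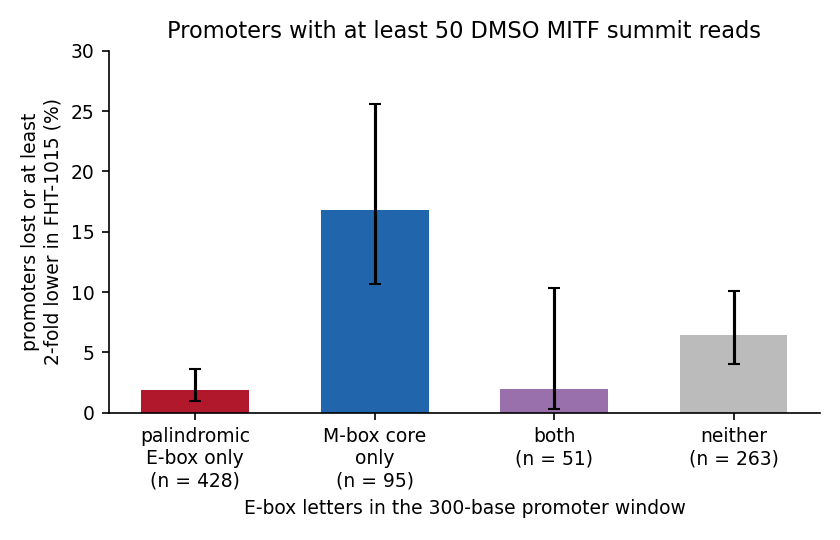
Share of promoters with at least 50 DMSO summit reads whose MITF peak was lost or at least 2-fold lower in FHT-1015, by E-box letters in the 300-base window (palindromic E-box is CACGTG, M-box core is CATGTG). Bars are percentages with 95% Wilson intervals, n is promoters, and the bar for the M-box core alone, at 16.8%, stands above that for the palindromic E-box alone, at 1.87%.

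Over the whole list, 57072 of the 89519 DMSO peaks were lost (63.8%) and 32447 were retained. Retained peaks were stronger, with a median of 27 summit reads in DMSO against 12 for lost peaks, and broader, with a median length of 432 bp against 260 bp. Promoter peaks, those within 1 kb of a protein-coding start (or of either gene boundary where no start is given), made up 21.7% of retained and 5.46% of lost peaks. At promoters 69.3% of peaks were retained (68.4 to 70.2) and elsewhere 32.0% (31.7 to 32.3). The gap was present in each decile of the list by strength: 36.6% against 10.2% in the weakest decile, 79.0% against 35.9% in the seventh and 98.0% against 83.2% in the strongest.

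**Figure D2:**
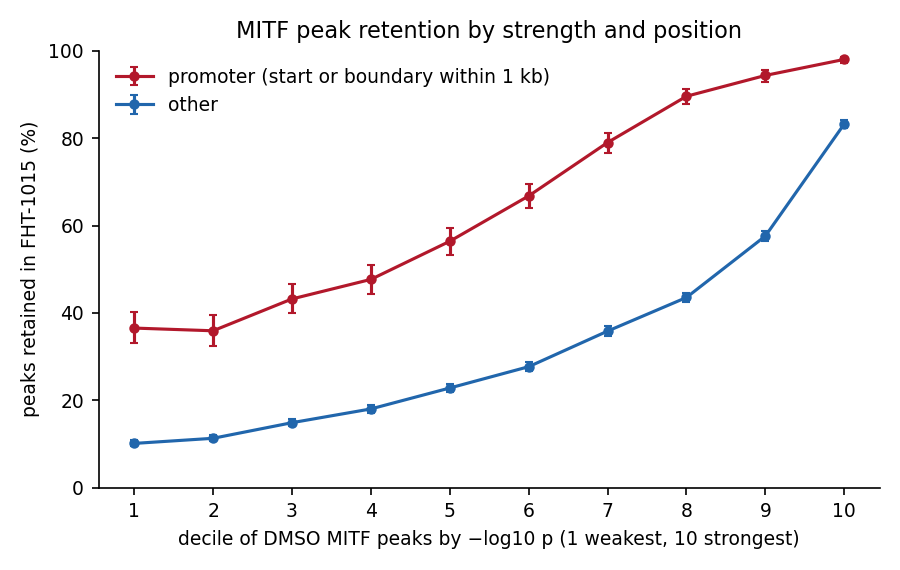
Percent of DMSO MITF peaks retained in FHT-1015 (y axis) in each decile of the list by −log10 p (x axis), for promoter peaks and others, with 95% Wilson intervals. Promoter peaks lie above the others in all 10 deciles, from 36.6% against 10.2% in the weakest to 98.0% against 83.2% in the strongest.

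Retention alone hides how far the reads of strong peaks fell. In the strongest decile, 8952 peaks, 14.6% were lost but 59.7% were reduced. The 1313 promoter peaks among them had a median ratio of 0.958, and 13.4% were reduced, while the 7639 others had a median ratio of 0.337 and 67.6% were reduced. By distance from the summit to the nearest start, the median ratio was 1.00 within 250 bp, 0.871 from 251 to 1000 bp, 0.484 from 1001 to 5000 bp, 0.356 from 5001 to 20000 bp, 0.332 from 20001 to 100000 bp and 0.339 beyond 100000 bp. Median DMSO reads were alike across these distances, between 88.5 and 98. These peaks were chosen for being strong in DMSO. When the strongest decile was taken from the FHT-1015 list instead, the median log2 ratio outside promoters was lower than at promoters by a difference of -0.42, against -1.51 with the DMSO choice.

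**Figure D3:**
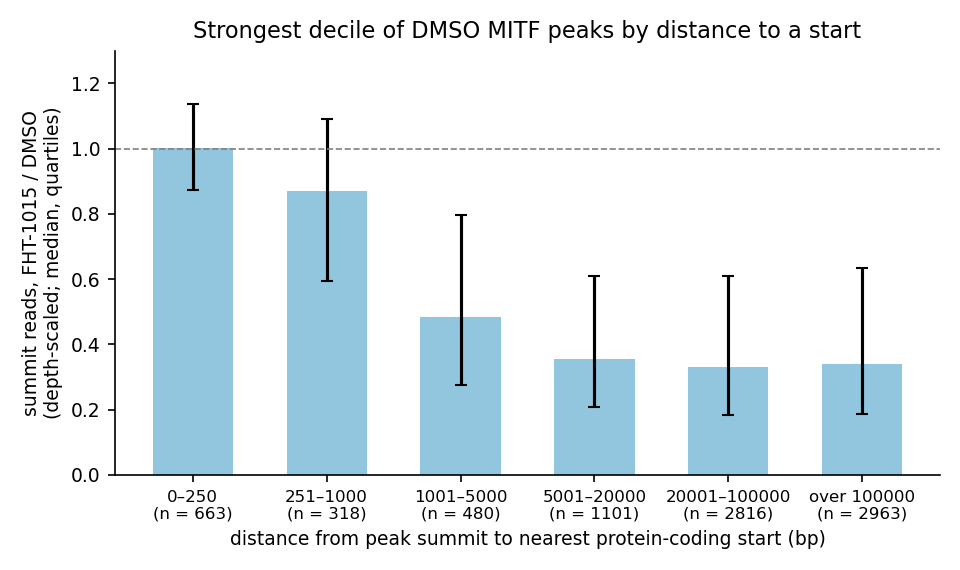
Depth-scaled ratio of MITF summit reads, FHT-1015 over DMSO (y axis), for the strongest decile of DMSO peaks by distance from summit to the nearest protein-coding start (x axis, bp). Bars are medians, whiskers the quartiles over peaks, n is peaks, the dashed line is no difference, and medians are 1.00 within 250 bp and between 0.332 and 0.356 in the 3 classes beyond 5000 bp.

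For genes, peaks within 5 kb of the gene body were assigned to it, and the strongest DMSO peak was called its lead peak. A promoter lead is a lead that is a promoter peak as defined above, so the start can be that of a neighbouring gene. The promoter lead of IDUA, for example, lies 5727 bp from the gene's own start and that of LDHA 19210 bp. Near all 19879 protein-coding genes 59.0% of peaks were lost. The share retained was 41.0% there, 53.3% near pigment genes (48.4 to 58.1), 53.3% near lysosomal genes, 52.3% near metabolic genes, 55.0% near cell cycle genes (49.3 to 60.5) and 44.9% near growth and survival genes (40.2 to 49.7). Peaks near all genes, weighted to the strength decile and position of each class, would give 53.9% for lysosome and 47.7% for pigment. The weighted shares were 49.4% for metabolism, 47.2% for cell cycle and 43.7% for growth and survival. A lead peak existed for 15058 genes, and it was lost at 33.3% of them, reduced at 49.8% and at least 2-fold higher at 0.677%, with a median ratio of 0.502. The 5 gene classes differed in how far they stood from these values. Lead peaks were reduced at 24 of 107 lysosomal genes (22.4%, 15.6 to 31.2), 33 of 90 cell cycle genes (36.7%, 27.4 to 47.0), 24 of 58 pigment genes (41.4%, 29.6 to 54.2), 43 of 103 metabolic genes (41.7%, 32.7 to 51.4) and 27 of 53 growth and survival genes (50.9%, 37.9 to 63.9). Median ratios were 0.963, 0.798, 0.550, 0.780 and 0.480 in that order. Only the lysosomal interval and the cell cycle interval lie wholly below 49.8%.

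The classes also differ in where and how strongly MITF bound in DMSO. The lead peak was at a promoter for 72.9% of lysosomal genes, 54.4% of cell cycle genes, 50.5% of metabolic genes and 43.1% of pigment genes, against 40.2% of all genes. Pigment genes had the strongest leads, with a median of 123.5 summit reads, then lysosomal genes with 91.0, against 34.0 over all genes. All genes weighted to the strength decile and position of each class would give 28.8% reduced for lysosome, 42.9% for pigment, 40.5% for metabolism, 41.5% for cell cycle and 45.6% for growth and survival. The order of the classes depended on which list chose the lead peak. With leads chosen in FHT-1015, 31.0% of pigment genes were reduced (20.6 to 43.8), against 9.44% of all genes. The others were 8 of 50 growth and survival genes, 10.5% for metabolism, 6.98% for cell cycle and 5.71% for lysosome (2.64 to 11.9). Such leads cannot be lost. Those without a DMSO peak have no ratio and stay in the totals, 15251 over all genes, as not reduced. These shares are therefore not the same measure as with the DMSO choice, and they were not weighted to strength and position. Pigment genes stood above all genes by this measure, while their interval with the DMSO choice included the 49.8% of all genes.

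**Figure D4:**
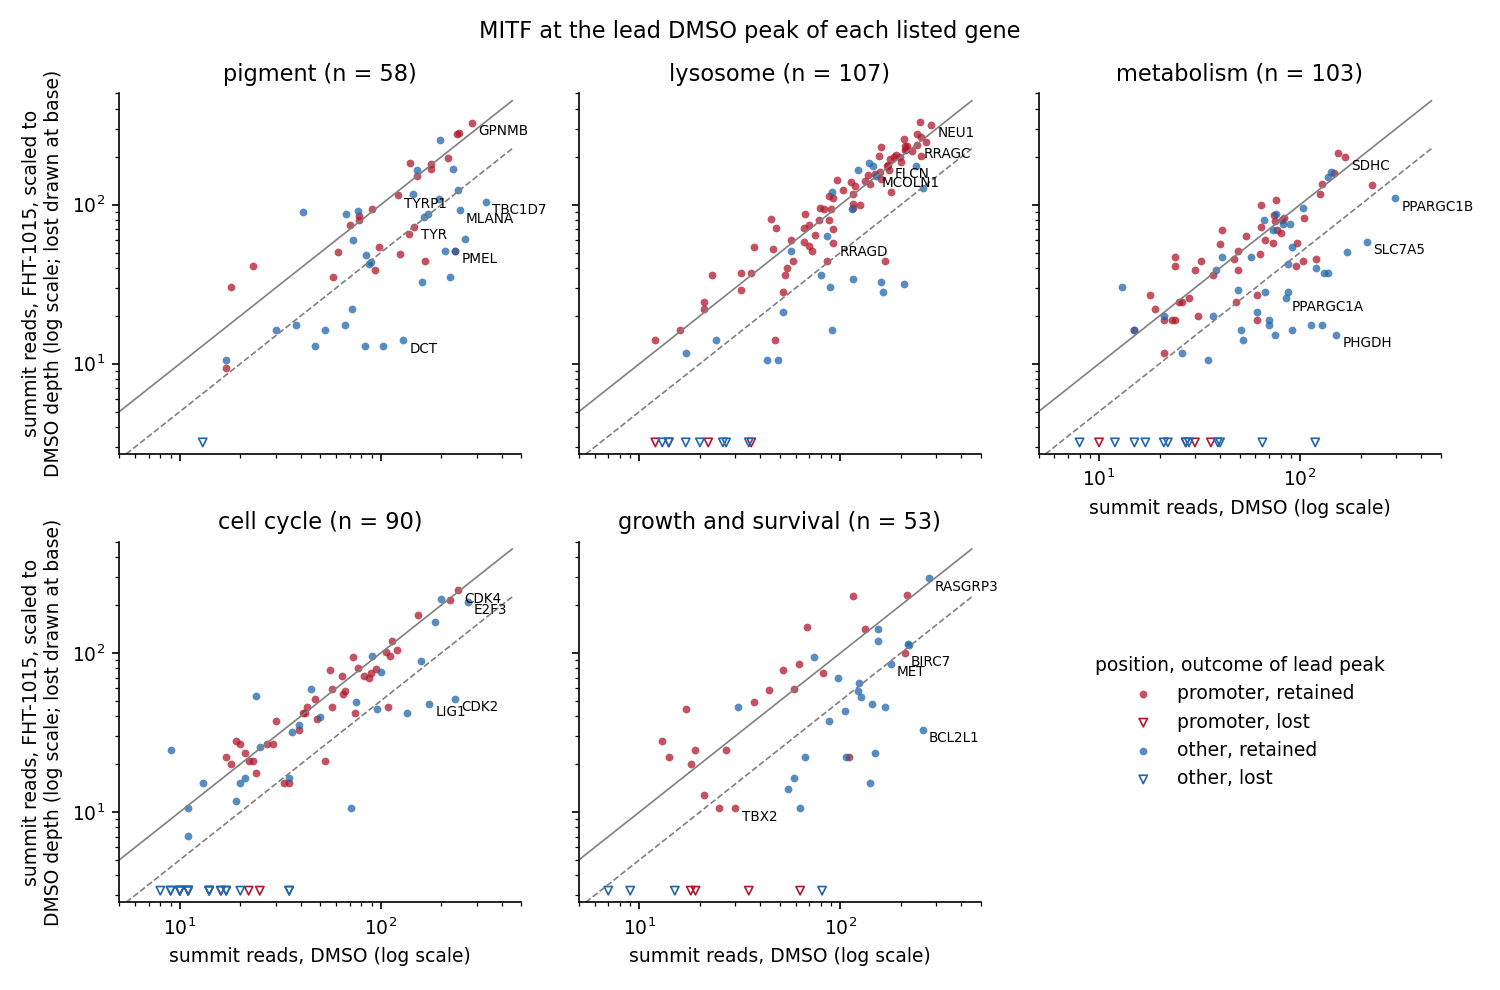
MITF summit reads at the lead DMSO peak of each listed gene, DMSO on the x axis and FHT-1015 scaled to DMSO depth on the y axis, both log scales, 1 panel per gene class. Points are genes, red at promoters and blue elsewhere, open triangles at the base are lost peaks, the solid line is equality and the dashed line a 2-fold lower value. Lysosomal genes lie mostly along the solid line, while pigment genes divide between it and the region under the dashed line.

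Pigment genes kept a MITF peak at nearly all lead sites, but with reduced reads at many of those away from promoters. Of 58 genes with a DMSO peak (60 listed), only AP1G1, an adaptor subunit of vesicle sorting, lost its lead peak, which had 13 reads in DMSO. All 7 lineage markers listed for description (PMEL, MLANA, TYR, TYRP1, DCT, SOX10, MITF) had a retained lead peak, against 66.7% of all leads. All but that of SOX10 were in the strongest decile, where 85.4% of all DMSO peaks were retained. Those of PMEL, MLANA, TYR and DCT were reduced all the same, and that of SOX10 had 58 and 30 reads (0.605, 0.376 to 0.957). MITF was reduced at 6 of 25 promoter leads, against 23.7% of all promoter leads, and at 18 of 33 others, against 67.3%. Within the strongest decile 15 of 26 pigment leads away from promoters were reduced (57.7%, 38.9 to 74.5), with a median ratio of 0.426, against 63.8% and 0.375 over all such leads. Grouped by role, after the values were known, leads were reduced at 7 of 10 genes of melanin synthesis and the melanosome matrix and at 5 of 8 channels and transporters, but at 3 of 16 genes of melanosome biogenesis complexes, such as BLOC-1 and HPS, against 49.8% of all leads. Promoter leads made up 5 of 10, 3 of 8 and 10 of 16 of these groups, so position moved with the counts, and its part was not tested.

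Among the melanin enzymes, DCT (dopachrome tautomerase) had 129 reads in DMSO and 12 in FHT-1015 at its lead peak, chr13:94515958-94516985, which lies 32680 bp into the gene, a ratio of 0.109 (0.0548 to 0.197). TYR (tyrosinase), bound at its promoter over the M-box cores printed above, had 147 and 62 reads, a ratio of 0.494 (0.361 to 0.669). TYRP1, the related enzyme, had 122 and 98 reads at its promoter, a ratio of 0.940 (0.713 to 1.24). The ratios of the 3 enzymes ran from 0.109 to 0.940, and the intervals of TYR and TYRP1 do not overlap.

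Melanosome proteins were as uneven. PMEL, which forms the fibrils on which melanin is laid down, had 235 and 44 reads (ratio 0.219, 0.155 to 0.303) at chr12:55970386-55971275. That peak lies within 5 kb of PMEL, CDK2 and RAB5B and is the lead of all these genes, so its value counts under the pigment and cell cycle classes alike. MLANA, a melanosomal antigen, went from 247 to 79 reads (0.374, 0.287 to 0.484) at a peak shared with BRD10. GPNMB, a melanosome and lysosome glycoprotein, had 284 and 279 reads at its promoter (1.15, 0.971 to 1.36). TSPAN10, a tetraspanin, had 234 and 44 at a promoter peak shared with NPLOC4 (0.220, 0.156 to 0.305).

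The vesicle traffic regulators TBC1D7 and TBC1D16 had 332 and 241 reads in DMSO and 89 and 106 in FHT-1015, ratios of 0.314 and 0.515. The MITF gene itself had 29 DMSO peaks, of which 16 were retained, and its lead peak, 81767 bp inside the gene at chr3:69820726-69821674, had 151 and 142 reads, a ratio of 1.10 (0.869 to 1.39). Reads over the factor's own gene therefore did not differ beyond counting error at that peak.

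Lysosomal genes mostly kept MITF at promoter leads. Of 111 listed genes 107 had a DMSO peak, and leads were reduced at 6 of 78 promoters (7.69%, 3.57 to 15.8) against 23.7% of all promoter leads. Within the strongest decile 1 of 55 lysosomal promoter leads was reduced, against 199 of 1627 (12.2%) over all genes and 6 of 20 for pigment genes. Away from promoters 18 of 29 lysosomal leads were reduced (62.1%, 44.0 to 77.3), close to the 67.3% over all such leads.

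By role, again grouped after the values were known, none of the 12 promoter leads of the V-type proton pump, which acidifies the lysosome, was reduced. Over all genes 23.7% of promoter leads were, and 12.2% of those in the strongest decile. Of the pump's 5 other leads 4 were reduced, against 67.3% of all leads away from promoters, so the pump followed the split by position seen over all genes. Autophagy genes had 1 reduced lead of 14, and hydrolases other than cathepsins 3 of 25, against 49.8% of all leads, with 10 of the 14 and 19 of the 25 at promoters. The most strongly bound genes were RRAGC, a GTPase through which amino acids reach the kinase mTORC1 (241 and 202 reads, ratio 0.981, 0.810 to 1.19), GABARAP, an autophagosome protein (252 and 229, 1.06), and NEU1, a sialidase (283 and 271, 1.12). FNIP1, the partner of folliculin, had 265 and 211 reads (0.932). NAGLU, a heparan sulfate hydrolase, had 248 and 283 (1.34, 1.12 to 1.59), the highest ratio of these genes. SQSTM1, an autophagy receptor whose lead is 12707 bp from the start, had 237 and 150 (0.741, 0.5998 to 0.913).

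FLCN (folliculin) had 173 and 151 reads at its promoter (1.02, 0.816 to 1.28), and MCOLN1, the lysosomal calcium channel, 149 and 133 (1.04, 0.821 to 1.33). RRAGD, the relative of RRAGC known as a target of the MiT-TFE factors, was lower, with 92 and 49 reads (0.623, 0.432 to 0.891). The lost leads named here held fewer DMSO reads than the class median of 91.0. TPCN1, an endolysosomal channel, had 26 reads, LGMN, a protease, 27, ATP6AP2 17 and ATP6V1B1 20 (both of the proton pump). The leads of TFEB (35 reads) and TFE3 (13 reads), the family members of MITF, were also lost, and that of TFEC went from 80 to 31, TFE3 and TFEC being named after their values were seen.

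Metabolic genes were near the values over all genes at both positions. MITF was reduced at 9 of 52 promoter leads (17.3%, 9.38 to 29.7), against 23.7% over all genes, and at 34 of 51 others (66.7%, 53.0 to 78.0), against 67.3%. Genes of the respiratory chain and ATP synthase, bound mostly at promoters, had 2 reduced leads of 17, glycolysis genes 11 of 22, amino acid genes 9 of 17 and mitochondrial regulators 3 of 5, against 49.8% of all leads. PPARGC1B, a coactivator of mitochondrial genes, had 297 and 94 reads at a peak inside the gene (0.370, 0.291 to 0.469). Its relative PPARGC1A, a described MITF target, had 85 and 22 at its lead (0.303, 0.180 to 0.489), and 9 of its 26 DMSO peaks were retained.

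The amino acid transporter subunits SLC3A2 and SLC7A5 form 1 complex and both lost reads. SLC3A2 had 229 and 114 at its promoter (0.583, 0.461 to 0.733), and SLC7A5 had 215 and 50 at a peak 7649 bp from its start (0.272, 0.196 to 0.372). PHGDH, which opens serine synthesis, went from 151 to 13 reads (0.101, 0.0524 to 0.178) at a peak 20977 bp from its start. COX7A2, a cytochrome oxidase subunit, had 142 and 137 (1.13), and SDHC, a succinate dehydrogenase subunit, 167 and 170 (1.19).

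The strongest lost metabolic lead was that of PFKFB2, which sets the level of a glycolysis activator, with 119 reads in DMSO, and none of its 7 DMSO peaks was retained. ACACA, the acetyl-CoA carboxylase of fatty acid synthesis, had 65 reads, GMPS, of guanine nucleotide synthesis, 39, SLC1A4, a neutral amino acid transporter, 40, SDHA 36 and PSAT1, of serine synthesis, 27.

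Cell cycle genes were bound more weakly, with a median of 35.0 lead reads, and 67 of 90 leads were retained (74.4%, 64.6 to 82.3). That share was 66.7% over all genes and 70.9% for all genes weighted to the same strength and position. CDK4, the G1 kinase, kept its promoter peak, which is shared with TSPAN31 and MARCHF9, with 243 and 212 reads (1.02, 0.845 to 1.23). CDK2, described as a MITF target, shares the PMEL peak, at 235 and 44. E2F3, a G1/S transcription factor, had 270 and 179 (0.776, 0.639 to 0.941) and DIAPH1, an actin regulator, 199 and 186 (1.09). LIG1, the replication ligase, went from 174 to 41 (0.276, 0.191 to 0.390), while CDC25B, a CDK phosphatase, had 187 and 134 (0.839, 0.667 to 1.05).

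The lost cell cycle leads named by the rule held 17 to 35 reads in DMSO, against a class median of 35.0. They were those of the mitotic checkpoint kinase BUB1 (35 reads), cyclin CCNE1 (25), the replication factor CDC45 (35), the p53 ligase MDM2 (22), the kinetochore protein NDC80 (20) and MYC (17). Over the whole list the lost peaks had a median of 12 reads.

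Growth and survival genes were reduced at 8 of 25 promoter leads (32.0%, 17.2 to 51.6), against 23.7% over all genes, and at 19 of 28 others (67.9%, 49.3 to 82.1), against 67.3%. BCL2L1, an inhibitor of cell death, went from 256 to 28 reads (0.128, 0.0834 to 0.190), BCL2, another, from 219 to 96 (0.513, 0.399 to 0.655), and BIRC7, a described MITF target, from 209 to 85 (0.476, 0.366 to 0.615). BCL2A1, also a described target, had 1 peak, of 15 reads, which was lost. Of the Gq signalling genes that drive uveal melanoma, 4 of 7 leads were reduced and none was at a promoter, against 67.3% of all leads away from promoters. PLCB4, the phospholipase of that route, had 217 and 97 reads (0.523, 0.408 to 0.668), with 8 of 28 peaks retained. RASGRP3, an activator of RAS, had 275 and 252 (1.07, 0.901 to 1.28), with 10 of 15 retained.

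IGF1R, a growth factor receptor, went from 166 to 39 reads (0.275, 0.189 to 0.392) with 11 of 35 peaks retained, and MET, the receptor of hepatocyte growth factor, from 178 to 73 (0.480, 0.3605 to 0.634). TBX2, a lineage repressor of senescence, was weakly bound, with 30 and 9 reads (0.351, 0.147 to 0.759). Lost leads were those of DUSP6, a phosphatase that limits ERK (81 reads, 0 of 2 peaks retained), SERPINF1 (63), the matrix proteins CCN1 (35) and CCN2 (19), and the angiogenic factor VEGFA (18).

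The very strongest sites were mixed. Among the 10 strongest retained peaks, named by the gene they lie in or nearest to, ratios ran from 0.326 at SS18L1 (338 and 94 reads) to 1.24 at TARS1 (286 and 303) and SLC35B3 (327 and 346). PTTG1 (306 and 320), KLF6 (304 and 262) and RGS20 (337 and 261) kept most reads, and TNFRSF14 (314 and 210), GPRIN3 (260 and 131), LINGO2 (257 and 111) and FAM50B (295 and 90) kept fewer. Of these, 6 lie outside genes, at 29646 to 818173 bp, against 3653 of the 8952 peaks of the strongest decile. Only TNFRSF14 lies at a promoter, against 1313 of the 8952. Ratios above 1 and values more than 2-fold lower thus stood side by side among sites of like DMSO strength.

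The 10 strongest lost peaks included none at a promoter. In the strongest decile 98.0% of the 1313 promoter peaks were retained, so promoters were rare among all its lost peaks. The strongest lost peak lay inside PLEKHA7, an adherens junction gene, at chr11:16812084-16812759, with 250 reads in DMSO, and ranked 107 in the list. The others lay in or nearest to SLC6A17 (201 reads), NSG1 (171), GPR137B (181), ERCC6L2 (204), PSG4 (159), SND1 (186), RPL38 (207), NRG2 (168) and DUS4L-BCAP29 (158). All 10 overlapped SOX10 and TFAP2A peaks in DMSO and neither in FHT-1015. H3K27ac was present over all 10 in DMSO and over 4 in FHT-1015, and SMARCA4 over all 10 and over 5. By contrast, 9 of the 10 strongest retained peaks overlapped all 4 other antibodies in both conditions, SS18L1 being the exception.

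That pattern was examined over the list. Of DMSO peaks that overlapped SOX10 in both conditions, 81.5% were retained (80.8 to 82.1), against 38.2% (37.7 to 38.7) of those with SOX10 in DMSO only and 21.1% of those with SOX10 in neither. In the strongest decile away from promoters, 26.4% of the 2463 MITF peaks with SOX10 in both conditions were reduced and 87.7% of the 5072 with SOX10 in DMSO only. Splitting by TFAP2A gave 52.7% and 90.4%, by SMARCA4 61.8% and 94.4%, and by H3K27ac 59.97% and 97.6%. The sizes of these gaps are not directly comparable, because the SOX10 list held 103379 peaks in DMSO and only 33268 in FHT-1015. SOX10 in both conditions thus covered 32.2% of these MITF peaks, against 54.4% for TFAP2A, 76.1% for SMARCA4 and 74.2% for H3K27ac. Median DMSO reads were 113 and 87 in the SOX10 split, so strength moved with it, and its part was not tested. A peak of MITF and a peak of another factor came from separate libraries of the same treatment and need not mark the same cells.

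The split also appeared at promoters. In the strongest decile, 4.77% of the 923 promoter peaks with SOX10 in both conditions were reduced and 33.8% of the 382 with SOX10 in DMSO only. Over leads at any position, 3 of 61 lysosomal leads with SOX10 in both conditions were reduced, against 18 of 39 with SOX10 in DMSO only, and among pigment leads 10 of 33 and 12 of 21. Over all genes the shares were 15.1% and 65.7%. Promoters held 52 of the 61 and 23 of the 39 lysosomal leads, and 3511 of 5025 and 2009 of 6752 leads over all genes, so position moved with the SOX10 split and its part was not tested. PMEL, MLANA, TYR and TYRP1 kept SOX10 at the lead peak in FHT-1015, and DCT and TSPAN10 did not.

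**Figure D5:**
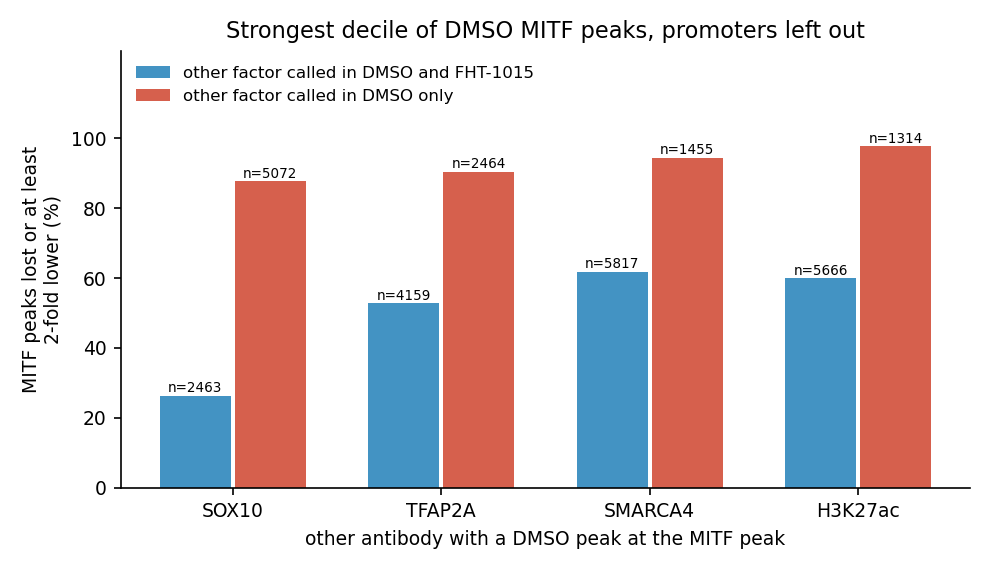
Percent of the strongest decile of DMSO MITF peaks, promoters left out, that were lost or at least 2-fold lower in FHT-1015 (y axis), by whether another antibody had a peak there in both conditions (blue) or in DMSO only (red), for each of the 4 other antibodies (x axis). Numbers over the bars are peaks. The widest gap is at SOX10, 26.4% against 87.7%, whose list also differed most in number between the conditions.

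FHT-1015-only peaks were 60043 of the 92716 FHT-1015 peaks (64.8%) and were weak. Their median summit held 7 reads against 17 in FHT-1015 peaks shared with DMSO, and 336 of them (0.560%) had a −log10 p of at least 10. Few overlapped another antibody: 3.31% SOX10, 7.57% TFAP2A, 6.27% SMARCA4 and 6.44% H3K27ac in FHT-1015, against 31.2%, 52.3%, 59.1% and 60.7% of the shared peaks. Of the 336 stronger ones 26.2% lay at promoters and 46.7% overlapped H3K27ac.

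The strongest FHT-1015-only peak, with 50 reads, lay inside STARD13 at chr13:33447141-33447774 and ranked 3628 in its list. The following ones lay in or nearest to SLC8A1 (43 reads), TMEM131L (43), RUBCN (50), NOCT (34), PARD3 (26), PDGFC (46), PTBP2 (32), LRP1B (26) and VWA1 (38). RUBCN encodes rubicon, an inhibitor of autophagosome maturation, and SLC8A1 a sodium-calcium exchanger. No gene in these 10 belonged to the 5 classes, which together hold 427 of the 19879 protein-coding genes, so that count says little about the classes. Lead peaks at least 2-fold higher in FHT-1015 were 0.677% of those of all genes, and were counted at 0 of 107 lysosomal, 1 of 58 pigment, 1 of 103 metabolic, 2 of 90 cell cycle and 3 of 53 growth and survival genes.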

How the data were processed

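MITF, SOX10, TFAP2A, SMARCA4 and H3K27ac ChIP-seq peak lists of 92-1 cells were used, 1 library per antibody and condition, grouped by sample title. In the titles TFAP2A is written AP-2, and the antibody label names TFAP2A. Per the submitters' processing notes, BWA, SAMtools, Picard, MACS2 and hg38 were used, and their versions, roles, settings and the control are not given in the sources used here. Each list belongs to 1 library. The authors' deposited columns were a score, equal to 10 times the −log10 p and truncated, a fold enrichment (a ratio over background), −log10 p and −log10 q, and the summit offset. These are the authors' own values per peak. The 4 broad lists were not used.

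Rows with the same chromosome, start and end were counted once. Summit reads x and background λ were solved from fold = (x + 1)/(λ + 1) and the Poisson tail of x over λ. The form is an inference from the values; with it x was whole within 0.002 for 99.98% of DMSO and FHT-1015 MITF peaks. In each library the lowest background of any peak (1.39 reads in DMSO, 1.23 in FHT-1015) was divided by the shortest peak length (190 and 197 bp). The ratio of the 2 results, 0.854, was taken as relative depth, since library totals were not analysed here. Median summit reads were 15 in DMSO and 8 in FHT-1015. Ratios carry exact binomial 95% intervals and shares Wilson intervals, both for counting error only. Only the recovery of reads and the overlap calls were tested on simulated data. Those reads were simulated under the same inferred form, so that test does not bear on the form itself. Median ratios count lost peaks as lowest.

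Genes came from RefSeq on GRCh38.p14, with 15842 of 19879 protein-coding genes having a start, and 177 more with contig coordinates were left out. Of 435 list entries 434 matched, 7 genes being in 2 classes, and promoter starts and sequences were joined to genes by gene identifier and chromosome. Members, gene lists and roles were chosen with earlier results of these data known. The genes named were, per class, the 6 retained and 6 lost lead peaks with the highest DMSO −log10 p, 16 fixed genes (PMEL, MLANA, TYR, TYRP1, DCT, GPNMB, MITF, CDK2, CDK4, TBX2, MET, BCL2A1, PPARGC1A, FLCN, RRAGD, MCOLN1), and those in or nearest to the 10 strongest peaks of each fate. A lysosomal gene named by this rule is not reported here. Others are marked where named. Alternatives covered overlap, thresholds, windows, strength and depth. Python 3 with numpy, pandas and scipy was used.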

Additional observations from a re-analysis of the deposited data

How the results depend on the processing

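No paired analysis was possible because each condition has 1 library and the results come from no test. Values below are the peak number ratio (FHT-1015 over DMSO, 1.04), the retained share (36.2%), the FHT-1015-only share (64.8%) and differences in percentage points: promoter minus other peaks (37.3), with minus without another antibody in DMSO (28.2 for SOX10, 23.5 TFAP2A, 24.8 SMARCA4, 33.7 H3K27ac), class minus all genes in peaks retained (12.3 pigment, 12.4 lysosome, 11.3 metabolism, 14.02 cell cycle, 3.93 growth and survival) and in leads reduced (-8.47, -27.6, -8.12, -13.2 and 1.13), and retained minus lost promoters with CACGTG (22.4) or CATGTG (1.23).

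The peak number ratio turned below 1 at −log10 p from 10 up (0.409), at q under 0.05 (0.706) and at a fold of at least 5 (0.410). Requiring 50% coverage gave 29.97% retained and 67.4% FHT-1015-only, with antibody differences of 22.3, 18.7, 18.4 and 26.9 in the order above. Summits within 200 bp gave 33.8% and 67.3%, a promoter difference of 32.0 and antibody differences of 25.8, 21.4, 22.7 and 30.5. Limiting DMSO and FHT-1015 peaks to a −log10 p from 10 up gave 35.4%, 13.2%, 43.7 and 26.3, 22.3, 16.7 and 31.7, with classes at 21.04 for pigment, 23.1 for lysosome, 23.03 for cell cycle and, reversed, -1.01 for growth and survival. That threshold in DMSO alone gave 61.7% retained, 35.1 for promoters and 17.2, 13.5, 13.1 and 27.7 for antibodies. With q under 0.05 the shares were 35.3% and 49.7%, with 34.5 for H3K27ac. Lists of equal number gave 35.8% and 63.9%. Averaged within strength deciles, the promoter difference was 32.8 and the antibody differences 7.96, 6.53, 4.65 and 16.3, each smaller than without that averaging. A promoter window of 2.5 kb gave 32.6.

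Lead peaks only gave class differences of 31.7 pigment, 23.2 lysosome, 17.9 metabolism, 7.76 cell cycle and 18.2 growth and survival, and promoter peaks only 3.39 for cell cycle and -1.13 for growth and survival. At a DMSO −log10 p from 10 up the CATGTG difference was -11.6.

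These alternatives were added after seeing the data. Promoters with at least 50 reads gave 37.7 for CACGTG and -24.2 for CATGTG, as kept minus reduced. Choosing the strongest decile in FHT-1015 gave a log2 difference of -0.42 between other and promoter peaks, against -1.51. Reads not divided by depth gave 1.18 for pigment leads. Leads chosen in FHT-1015, which cannot be lost, gave 21.7 for pigment and 1.04 for metabolism, both reversed, -3.75 for lysosome and -2.48 for cell cycle. The cause of these shifts was not tested. The remaining 68 alternatives kept their direction, 59 of them within 1.5 times the reported value. The other 9 were class differences. For growth and survival, leads were at 2.62 with reads not divided by depth, 2.85 with a gene window of 1 kb and 6.58 when chosen in FHT-1015, and peaks at 2.15 with 50% coverage and 6.11 with the threshold in DMSO alone. Promoter peaks only gave 7.63 for lysosome and 7.05 for metabolism, which was at 7.22 with both lists limited and at -12.2 for leads with the 1 kb window. Depth may limit weak sites: FHT-1015 summits held a median of 8 reads, and a lost peak is one not detected at this depth. Of the 89126 DMSO peaks that would still pass the lowest −log10 p at FHT-1015 depth, 36.4% were retained, against 36.2% of all. This set held nearly all of the 89519 DMSO peaks, so its share could hardly differ. The comparison therefore does not show what part depth had. The absence of replicates leaves the variation between cultures unmeasured.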

Other observations

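MITF reads were at least 2-fold higher after FHT-1015 at the lead peaks of 7 of 404 listed genes (1.73%), against 0.677% of all genes. Growth and survival genes held 3 of 53 (5.66%) and cell cycle genes 2 of 90 (2.22%). They are named because of their values. SPRY2, a feedback inhibitor of receptor tyrosine kinase signalling, was the strongest, with 68 reads in DMSO and 124 in FHT-1015 at its promoter, a ratio of 2.13 (1.58 to 2.91). TFAP2A, the neural crest factor whose binding was also profiled, had 41 and 77 reads at a peak away from promoters (2.20, 1.49 to 3.29), and RRM2, a subunit of ribonucleotide reductase, 24 and 46 (2.24, 1.34 to 3.84). BAP1, a tumour suppressor often mutated in uveal melanoma, had 17 and 38 reads at its promoter (2.62, 1.44 to 4.94). IDH2 (13 and 26 reads), E2F8 (9 and 21) and JUN (13 and 24) were bound weakly in both libraries, with lower interval bounds of 1.16, 1.199 and 1.06.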
